A study of Mus musculus with 9 samples.

Results

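The comparison described here sets mouse CD8+ T cells cultured with IL-15 against cells of the same replicate cultured with IL-2. It was formed on two-colour oligonucleotide arrays, each of which hybridised RNA of cytokine-treated cells together with RNA of untreated cells, and each array gives a log2 ratio per probe. For every gene the ratio of the IL-2 array was subtracted from that of the IL-15 array with the same replicate number, which gave 3 differences. The untreated cells and any dye effect drop out of a difference where both arrays of the replicate share them. The direction of the ratio does not drop out. The members are 6 arrays, 3 with IL-15 and 3 with IL-2, of 9 in the series. The remaining 3 arrays carry IL-21.

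The IL-15 cells were kept with IL-15 at 10 ng/ml for 4 days and then stimulated again for 4 h without cytokine, the IL-2 cells received IL-2 at 10 ng/ml on the same schedule, and the untreated cells on every array had neither cytokine but the same restimulation. All values therefore belong to cells that had been restimulated. The labels name the 3 replicates of each cytokine as biological. For the strain, age and organ of the mice, and for any first stimulation of the cells, the sources used here give nothing. The T cell label could not be checked against marker levels, because a ratio to untreated CD8+ T cells does not show whether a marker is present.

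IL-2 and IL-15 are cytokines of the common gamma chain family. Both signal through a pair of shared receptor chains, IL-2Rβ and the common gamma chain, and through JAK1, JAK3 and STAT5, while each has its own alpha chain. The IL-2 alpha chain (CD25) sits on the responding T cell, whereas IL-15 is usually presented to the T cell on the IL-15 alpha chain of another cell. In CD8+ T cells IL-2 is best known for driving growth and effector differentiation, and IL-15 for the upkeep of memory cells.

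Array medians lay between -0.04 and 0.13. IL-2 replicate 3 stood apart, where 13.6% of probes had a ratio above 1 or below -1 on the log2 scale, against 4.10% to 6.47% on the other 5 arrays used. A mean difference that moves by over 1.5 times without replicate 3 is also given without it, unless its 3 differences are printed. Without replicate 3, 699 genes had an unadjusted p under 0.05 and 0 passed adjustment. By the sample labels Cy5 marked the treated cells throughout, whereas the text on the design has the dyes exchanged in replicates 2 and 3. The direction of the ratios, cytokine over untreated, is therefore likely rather than settled. If it ran the other way on all arrays, every sign given here would turn. If it did so in replicate 1 alone, the values with the sign of replicate 1 turned would apply. If it did so in replicates 2 and 3 alone, those values would apply with their signs reversed and higher and lower exchanged.

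No gene separated IL-15 from IL-2 after adjustment. Of 17498 genes, limma's paired test with Benjamini-Hochberg adjustment called 0 higher and 0 lower with IL-15 (0.0% in each direction), and the smallest adjusted p was 0.94. Every gene named below has an adjusted p of at least 0.94, so its value is a description. At an unadjusted p under 0.05, 190 genes were higher with IL-15 (1.09% of those tested) and 449 were lower (2.57%), and their sum, 639, is 3.65% of the genes. With 3 pairs an exact sign-flip test of 1 gene cannot give a two-sided p under 0.25.

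The 3 differences shared little. Across genes, which are not independent replicates, the difference in replicate 1 correlated with that in replicate 2 at 0.06 and with that in replicate 3 at -0.03, and replicates 2 and 3 gave 0.00. The ratios themselves also correlated little between replicates of 1 cytokine, at -0.05 to 0.19 with IL-15 and -0.21 to 0.24 with IL-2. The IL-15 and IL-2 arrays of the same number correlated at 0.68, 0.26 and 0.33 in replicates 1 to 3. The spread of the difference over genes (SD) was 0.44, 0.61 and 0.64 in replicates 1 to 3. The difference was above 0 in all 3 replicates for 1701 genes (9.72%) and below 0 in all 3 for 2700 (15.4%). All 3 IL-15 arrays lay above all 3 IL-2 arrays for 270 genes (1.54%) and below them for 502 (2.87%). The median difference over all genes was -0.04, with -0.00, -0.02 and -0.09 in replicates 1 to 3.

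**Figure D1:**
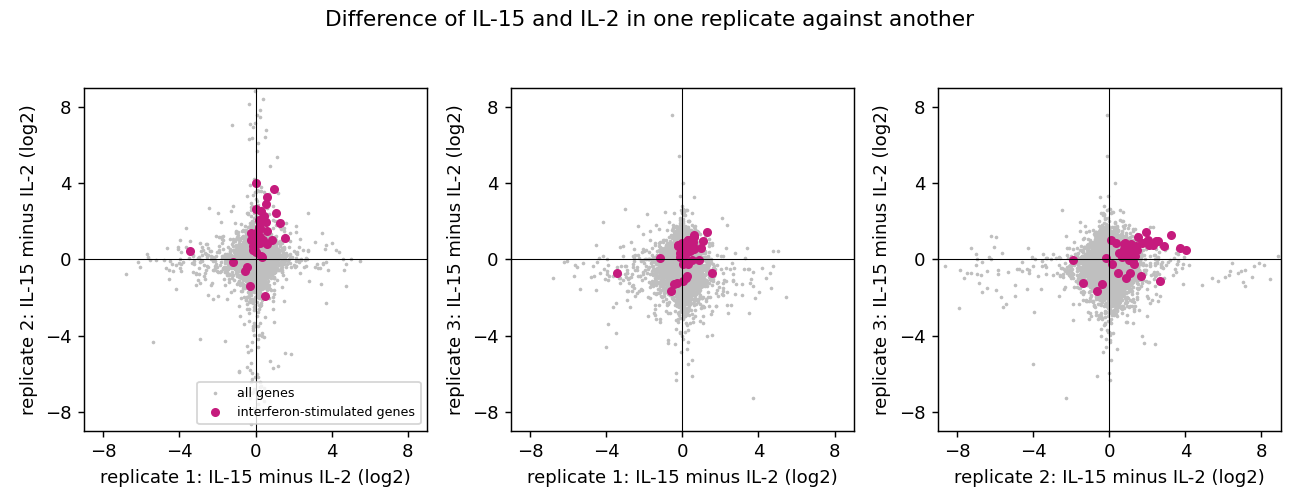
Each point is 1 of 17498 genes, with the difference of log2 ratios, IL-15 minus IL-2, in one replicate on the x axis and in another on the y axis, and interferon-stimulated genes in colour. The grey cloud shows no diagonal (correlations of 0.06, -0.03 and 0.00), while most interferon-stimulated genes lie right of and above 0.

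The arrays bound how far most genes can differ. For 14287 genes (81.6%) the 95% interval of the mean difference lay within -1 and 1 on the log2 scale, and the interval reached a median of 0.48 to either side of the mean. A gene whose interval crosses 0 is not shown to be alike under the 2 cytokines. In a paired fit of the same kind, IL-21 minus IL-2 gave 0 genes past adjustment and 2063 at an unadjusted p under 0.05 (11.8%), and its replicates correlated at 0.26, 0.20 and 0.16. These comparisons share the IL-2 arrays, so they are set side by side and were not tested against each other.

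No list-wide difference was seen among the genes of the receptors and of their signalling. Of 18 measured genes of the IL-2 and IL-15 receptor and signalling list, 1 was above 0 in all 3 replicates and 3 were below, shares of 5.56% and 16.7% against 9.72% and 15.4% of all genes. Il2ra, the gene of CD25, had log2 ratios of 0.58, 0.04 and 0.31 in IL-15 replicates 1 to 3, against 0.70, 0.37 and 0.06 in IL-2 replicates 1 to 3. These values overlapped, and the mean difference was -0.07 (SE 0.18, 95% interval -0.54 to 0.40), or -0.23 without replicate 3. Its 3 probes ranged from -0.45 to 0.21.

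Il2rb, the gene of the shared beta chain, had 0.72, 0.20 and -0.02 with IL-15, against 0.79, 0.32 and 0.55 with IL-2. The difference was below 0 in each replicate, with a mean of -0.25 (SE 0.17), or -0.10 without replicate 3, and the arrays overlapped. Il15ra, the gene of the IL-15 alpha chain, had 0.11, 0.00 and 0.03 with IL-15, against -0.18, -0.23 and -0.78 with IL-2. It was the 1 member of the list above 0 in every replicate, its IL-15 arrays lay above all IL-2 arrays, and the mean difference was 0.44 (95% interval -0.04 to 0.93). Without replicate 3 it was 0.26. Pik3r1, the gene of a regulatory subunit of PI3 kinase, had a mean difference of -0.68, or -0.44 without replicate 3, but its 4 probes ranged from -2.39 to 0.28.

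Targets of STAT5 showed no common direction. Of 19 measured STAT5 and feedback targets, 5 were above 0 in all 3 replicates (26.3%) and 2 below (10.5%). The shares of all genes were 9.72% and 15.4%, and the median difference of the list was -0.07. Cish, a feedback inhibitor that STAT5 induces, had log2 ratios of 0.44, 0.68 and 0.44 with IL-15, against 0.42, 0.31 and 0.36 with IL-2. The groups did not overlap, yet the mean difference was 0.16 (95% interval -0.25 to 0.57), or 0.05 without replicate 2. Socs2, another STAT5-induced inhibitor, had 1.83, 0.97 and 0.41 with IL-15, against 1.67, 1.19 and 1.08 with IL-2. Its differences were 0.15, -0.22 and -0.67, of mixed sign, and the mean was -0.25, or -0.03 without replicate 3. Socs3, whose protein restrains cytokine receptors that use STAT3, was below 0 in each replicate (-0.41, -0.39 and -0.57). Of 12 measured common gamma chain family receptor genes and their relatives, 3 were above 0 in all replicates (25.0%) and 2 below (16.7%), against 9.72% and 15.4% of all genes. Il7r, the gene of the IL-7 receptor alpha chain, had -0.77, -0.17 and 0.08 with IL-15, against -0.17, 0.13 and 0.92 with IL-2, a mean difference of -0.58 (SE 0.17).

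Genes of the type I interferon response had the highest median difference of the 39 lists, with most members higher with IL-15 and the Ifitm genes lower. These genes encode antiviral effectors and sensors and are switched on through the factor ISGF3, which binds the interferon-stimulated response element. Of 50 listed genes 44 were measured, and 24 of them (54.5%) had a difference above 0 in all 3 replicates, against 9.72% of all genes, while 3 (6.82%) had one below 0, against 15.4%. At an unadjusted p under 0.05, 15 were higher and 3 lower with IL-15, where all genes gave 1.09% and 2.57%. For 15 genes all IL-15 arrays lay above all IL-2 arrays, and for 2 below, where all genes gave 1.54% and 2.87%. The median difference of the list was 0.54, with 0.18, 1.12 and 0.46 in replicates 1 to 3. The number above 0 was 33, 39 and 31 of 44 in replicates 1 to 3.

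The size differed between replicates. With both remaining replicates required, 30 genes were above 0 without replicate 1, 24 without replicate 2 and 32 without replicate 3. Of all genes 19.1%, 20.5% and 24.3% were above 0 in those cases. The median was 0.73, 0.30 and 0.69 in those cases, so replicate 2 held the largest differences. With the sign of replicate 1 turned, 6 of the 44 genes were above 0 in all 3 replicates, where all genes gave 9.38%. The median of the list was then 0.47. The median ratio of the list to untreated cells was 0.29, 1.14 and 0.78 on the IL-15 arrays, against 0.17, 0.10 and 0.48 on the IL-2 arrays.

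**Figure D2:**
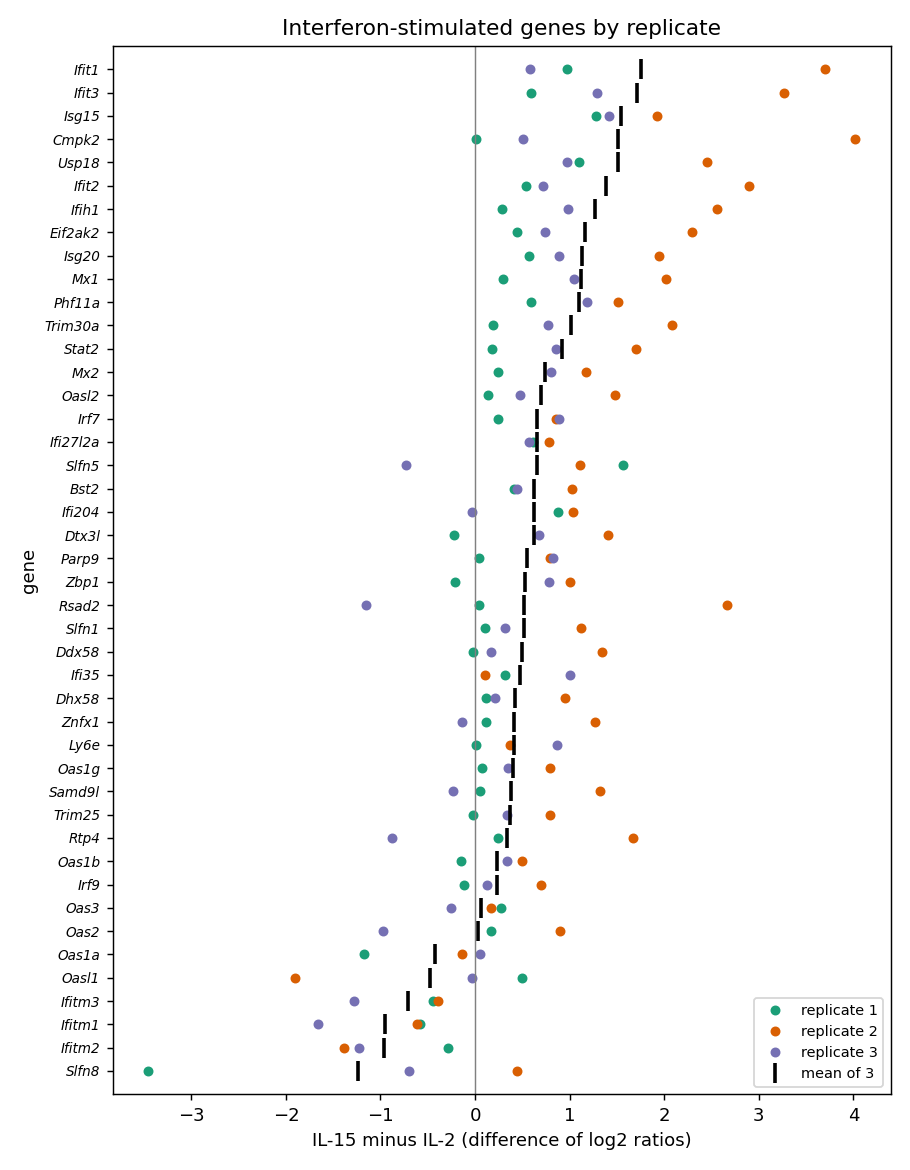
The difference of log2 ratios, IL-15 minus IL-2, is shown on the x axis for each of the 44 measured interferon-stimulated genes, with 1 point per replicate and a bar at the mean of 3. Genes from Ifit1 down to Irf7 lie right of 0 in every replicate, and the 3 Ifitm genes lie left of 0 in every replicate.

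Promoter windows of 6 genes of this list are printed to show how the motif of the interferon response lies in genes that were higher with IL-15 (Isg15, Ifit1, Ifit3 and Phf11a) and in genes that were lower (Ifitm2 and Ifitm3). Each window holds the 250 bases before the annotated start, taken from RefSeq on GRCm38.p6 and read 5′ to 3′ on the strand of the gene, and capitals mark matches to GAAA, any 2 bases and GAAA, or on the other strand TTTC, any 2 bases and TTTC, overlapping matches included. The windows lie at chr4:156200819-156201068 (Isg15, minus strand), chr19:34640639-34640888 (Ifit1, plus strand), chr19:34583279-34583528 (Ifit3, plus strand), chr14:59297523-59297772 (Phf11a, minus strand), chr7:140955962-140956211 (Ifitm2, minus strand) and chr7:141010745-141010994 (Ifitm3, minus strand).
Isg15: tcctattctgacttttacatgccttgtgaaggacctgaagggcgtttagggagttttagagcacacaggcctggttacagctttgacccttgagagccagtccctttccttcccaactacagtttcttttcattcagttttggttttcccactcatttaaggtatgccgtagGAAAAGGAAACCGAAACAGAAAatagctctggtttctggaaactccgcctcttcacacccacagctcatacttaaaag
Ifit1: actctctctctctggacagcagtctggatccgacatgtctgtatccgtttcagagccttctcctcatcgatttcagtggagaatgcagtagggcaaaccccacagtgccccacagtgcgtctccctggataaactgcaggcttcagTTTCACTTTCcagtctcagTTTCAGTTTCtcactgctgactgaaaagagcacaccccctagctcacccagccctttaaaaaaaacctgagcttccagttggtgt
Ifit3: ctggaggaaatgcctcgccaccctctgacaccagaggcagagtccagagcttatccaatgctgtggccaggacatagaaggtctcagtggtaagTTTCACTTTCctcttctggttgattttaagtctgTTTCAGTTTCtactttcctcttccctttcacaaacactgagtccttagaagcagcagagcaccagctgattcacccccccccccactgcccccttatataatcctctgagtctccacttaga
Phf11a: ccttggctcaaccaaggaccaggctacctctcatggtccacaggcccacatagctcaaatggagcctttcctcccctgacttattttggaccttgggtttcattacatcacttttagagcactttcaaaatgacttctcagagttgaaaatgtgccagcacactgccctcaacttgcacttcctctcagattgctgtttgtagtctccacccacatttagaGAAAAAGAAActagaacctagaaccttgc
Ifitm2: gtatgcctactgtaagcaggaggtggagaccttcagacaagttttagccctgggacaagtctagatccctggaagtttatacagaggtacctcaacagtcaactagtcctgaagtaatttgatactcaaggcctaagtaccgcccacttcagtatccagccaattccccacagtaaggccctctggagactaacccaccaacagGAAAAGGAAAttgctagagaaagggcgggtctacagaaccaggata
Ifitm3: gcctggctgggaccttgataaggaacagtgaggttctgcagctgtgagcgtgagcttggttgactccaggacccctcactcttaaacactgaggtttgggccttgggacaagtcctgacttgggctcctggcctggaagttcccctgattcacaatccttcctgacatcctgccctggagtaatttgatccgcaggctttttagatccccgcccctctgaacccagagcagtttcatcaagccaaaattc

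Isg15 holds 3 overlapping matches, whose first bases lie at -78, -72 and -66 from the start. Ifit1 holds 2, at -104 and -85, and Ifit3 holds 2, at -156 and -122. Phf11a has 1 match at -29 and Ifitm2 has 1 at -46, while the Ifitm3 window has 0. The motif occurs in 2.98% of all 32851 windows of this length, and in 3.46% of 27025 genes when any window of a gene counts. Of the 44 measured list genes 32 had a window, and 14 of them (43.8%) held it. The motif was in 8 of the 17 windowed genes above 0 in all 3 replicates, in 5 of the 12 of mixed sign and in 1 of the 3 below 0. The list was made of genes known to respond to interferon, so its motif share describes the list. A match is a description of letters, and the absence of one says nothing of binding.

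Isg15 encodes a ubiquitin-like protein that is joined to other proteins. Its log2 ratios were 1.64, 2.86 and 2.33 in IL-15 replicates 1 to 3, against 0.36, 0.94 and 0.91 in IL-2 replicates 1 to 3. Every IL-15 array lay above every IL-2 array. The mean difference was 1.54 (SE 0.19, 95% interval 1.04 to 2.04, n = 3 pairs), or 2.91-fold. Isg15 had the smallest unadjusted p of all genes higher with IL-15.

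Usp18, the protease that removes ISG15 and dampens interferon receptor signalling, had 1.57, 2.97 and 2.69 with IL-15, against 0.47, 0.52 and 1.71 with IL-2. Each IL-15 array exceeded its partner, although the IL-2 value of replicate 3 lay above the IL-15 value of replicate 1. The mean difference was 1.51 (SE 0.34). Ifit3, whose protein is part of a complex that binds foreign RNA, had 1.14, 3.82 and 2.78 with IL-15, against 0.56, 0.55 and 1.49 with IL-2. Replicate 2 carried most of its mean difference of 1.72 (SE 0.55), with 3.27 against 0.59 and 1.29 in the other replicates, and its 3 probes ranged from 1.56 to 2.02.

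Ifit1, of the same complex, had 0.69, 4.02 and 1.89 with IL-15, against -0.27, 0.31 and 1.31 with IL-2, a mean difference of 1.75 (SE 0.66), or 0.77 without replicate 2. Isg20, an exonuclease gene, had 1.21, 2.09 and 1.47 with IL-15, against 0.64, 0.14 and 0.58 with IL-2. Its groups did not overlap, and the mean difference was 1.14 (SE 0.31), or 0.73 without replicate 2. Phf11a, an interferon-induced gene, had 0.89, 1.94 and 1.51 with IL-15, against 0.30, 0.42 and 0.32 with IL-2. Those groups did not overlap either, with a mean difference of 1.10 (SE 0.22).

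Irf7, the gene of the factor that amplifies interferon production, had 0.39, 1.23 and 1.01 with IL-15, against 0.14, 0.38 and 0.13 with IL-2. The IL-15 arrays lay above all IL-2 arrays by a narrow margin in replicate 1, and the mean difference was 0.66 (SE 0.19). Mx1, a gene of an antiviral GTPase, differed by 0.29, 2.02 and 1.04 in replicates 1 to 3. Eif2ak2, the gene of the RNA-dependent kinase PKR, differed by 0.45, 2.30 and 0.74, and Ifih1, the gene of the RNA sensor MDA5, by 0.28, 2.56 and 0.98. Replicate 2 carried most of these 3 genes' means of 1.12, 1.16 and 1.27, which were 0.67, 0.59 and 0.63 without it. Ifi27l2a, a small interferon-induced gene, differed by 0.62, 0.78 and 0.57 in replicates 1 to 3, and its 2 probes gave 0.28 and 1.03. Stat2, the gene of a subunit of ISGF3, had a mean difference of 0.91, or 0.52 without replicate 2, and Irf9, the gene of its DNA-binding subunit, one of 0.23 with mixed signs. The oligoadenylate synthetase genes, whose products activate RNase L, were uneven. Oas1g had a mean of 0.40, or 0.21 without replicate 2, Oas2 differed by 0.17, 0.90 and -0.98, and Oas1a by -1.17, -0.14 and 0.05, and their probes may bind RNA of related genes.

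Not all members followed. The 3 Ifitm genes of the list, whose membrane proteins block virus entry, were lower with IL-15 in each replicate. Ifitm3 had 1.24, 1.75 and 1.38 with IL-15, against 1.69, 2.15 and 2.67 with IL-2. The IL-15 value of replicate 2 lay above the IL-2 value of replicate 1, and the mean difference was -0.71 (SE 0.23), or -0.42 without replicate 3. Ifitm2 had 0.47, 0.55 and 0.30 with IL-15, against 0.76, 1.94 and 1.53 with IL-2, with no overlap and a mean difference of -0.97. Ifitm1 had a mean difference of -0.95, or -0.60 without replicate 3. Probes of this family may bind RNA of its other members. Rsad2 and Cmpk2, neighbouring antiviral genes, depended on replicate 2, with differences of 2.66 and 4.02 there, while Rsad2 was at -1.15 in replicate 3 and Cmpk2 at 0.01 in replicate 1.

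**Figure D3:**
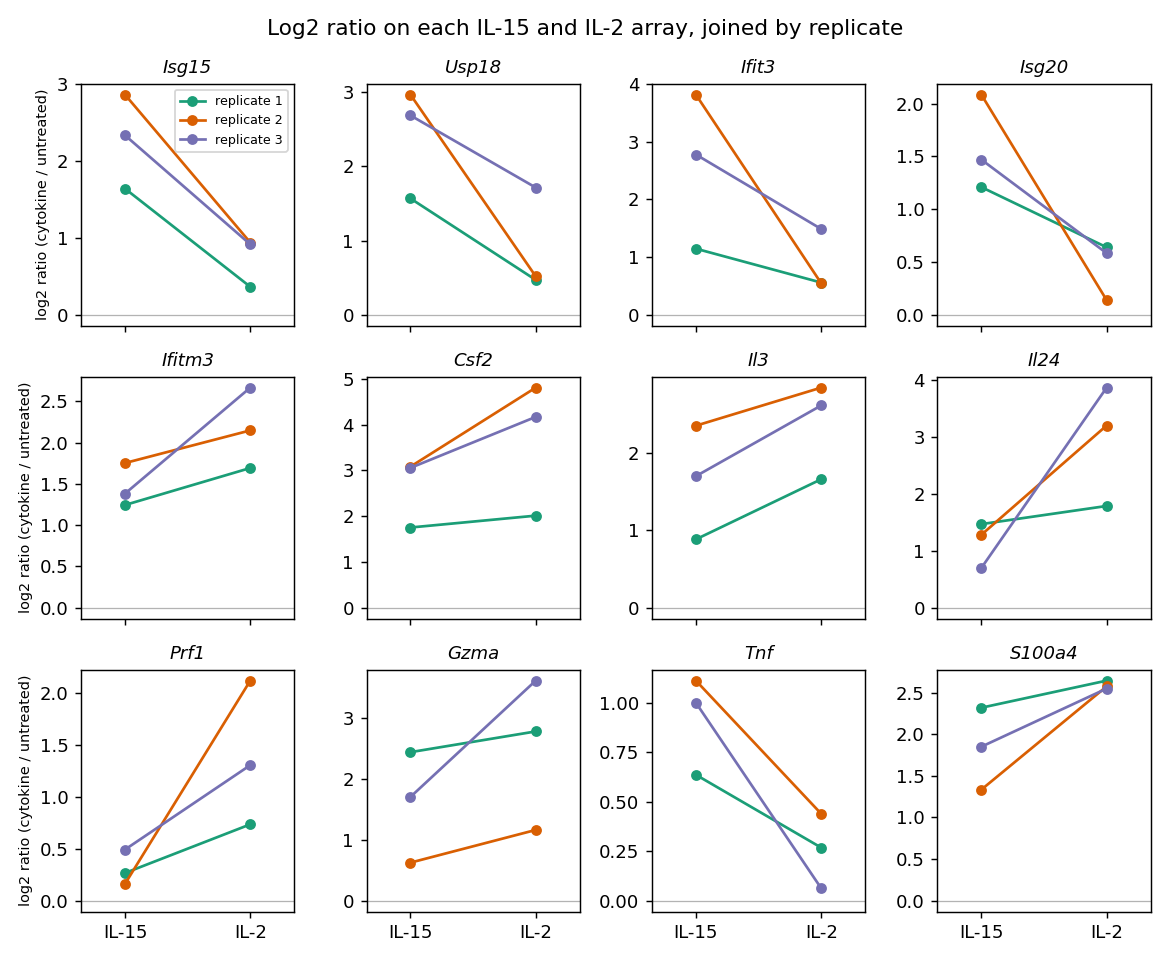
For 12 genes the y axis gives the log2 ratio of cytokine-treated over untreated cells on each array, with IL-15 left, IL-2 right and lines joining arrays of 1 replicate. The lines fall to the right for Isg15, Usp18, Ifit3, Isg20 and Tnf and climb to the right for the other 7 genes in all 3 replicates.

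Genes induced by interferon gamma showed higher values with IL-15 in replicates 2 and 3. All 13 listed GTPase and related genes were measured, and their median difference was 0.47, with -0.01, 0.92 and 0.79 in replicates 1 to 3. Above 0 in all 3 replicates were 4 of them (30.8%) and below 0 were 0, against 9.72% and 15.4% of all genes. Without replicate 1 the first count was 11, and with the sign of replicate 1 turned it was 7. All genes gave 19.1% and 9.38% above 0 in those settings. Gbp2, a guanylate-binding protein gene of cell-autonomous defence, had 0.98, 0.84 and 0.47 with IL-15, against 0.69, -1.32 and -1.24 with IL-2. The gap was wide in replicates 2 and 3 and 0.30 in replicate 1, with a mean difference of 1.39 (SE 0.40). Probes of related guanylate-binding proteins may bind RNA of the other genes.

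MHC class I presentation genes, several of which interferons induce, had a median difference of 0.31 over 14 measured genes, with 6 above 0 in all 3 replicates (42.9%) and 0 below, against 9.72% and 15.4% of all genes. Turning the sign of replicate 1 left 5 above, where all genes gave 9.38%, and a median of 0.31. Psmb10, an immunoproteasome subunit gene, had 0.74, 0.51 and 0.04 with IL-15, against 0.37, -0.13 and -0.65 with IL-2. Within each replicate IL-15 was higher, and the mean difference was 0.57 (SE 0.15). H2-T23, a gene of a non-classical class I molecule, had a mean difference of 0.62.

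Markers of other cells were read beside these groups. Of 12 measured myeloid and dendritic cell markers, 1 was above 0 in all 3 replicates and 1 below (8.33% each). All genes gave 9.72% and 15.4%, and the median difference of this list was -0.09. The median ratio of that list was -0.24, -0.13 and 0.03 on the IL-15 arrays, against -0.17, -0.10 and 0.27 on the IL-2 arrays. The marker above 0 was Mpeg1, the gene of the pore protein perforin-2, with 0.49, 1.62 and 0.40 under IL-15, against -0.10, -0.68 and -1.28 under IL-2, a mean difference of 1.52 (SE 0.36). Of 9 MHC class II genes 2 were above 0 in all replicates and 1 below, with a median of 0.05. B cell markers had 0 above and 1 below among 10 genes. Natural killer cell defining markers had 0 above and 1 below among 7, and CD4 and regulatory T cell markers had none of 6 on one side of 0. CD8 T cell identity genes had 5 of 11 above 0 in all 3 replicates (45.5%, against 9.72% of all genes) and 0 below, with a median of 0.12. In bulk RNA fewer cells of a type and less RNA per cell cannot be told apart. Without intensities the marker levels are unknown, and their part in the results above was not tested.

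The cytokine genes split. Of 21 measured cytokine genes of activated T cells, 5 were above 0 in all 3 replicates (23.8%) and 6 below (28.6%). All genes gave 9.72% and 15.4%, and the median difference of -0.06 was near that of all genes. At an unadjusted p under 0.05, 2 were higher and 5 lower. Il3, Csf2, Il24 and Il10 had differences below 0 in all 3 replicates, and Tnf and Ltb above 0.

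Il3, a growth factor gene for blood progenitors, had 0.89, 2.36 and 1.70 with IL-15, against 1.66, 2.85 and 2.62 with IL-2. Both cytokines gave values above untreated cells on every array, the IL-15 value was below its partner each time, and the mean difference was -0.73 (SE 0.16, 95% interval -1.15 to -0.31). Csf2, the gene of GM-CSF, had 1.75, 3.08 and 3.06 with IL-15, against 2.01, 4.81 and 4.17 with IL-2, a mean difference of -1.03 (SE 0.31), or -0.69 without replicate 2. After quantile normalization of the arrays its mean difference was 0.04, so its direction depends on the scaling. Il24, a cytokine gene of the IL-10 family, had 1.47, 1.28 and 0.70 with IL-15, against 1.79, 3.20 and 3.87 with IL-2. Its groups did not overlap, its differences spread from -0.32 to -3.17, and the mean was -1.80 (SE 0.56), or -1.12 without replicate 3.

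Tnf, the gene of an inflammatory and cytotoxic cytokine, had 0.64, 1.11 and 1.00 with IL-15, against 0.27, 0.44 and 0.06 with IL-2. All IL-15 arrays lay above all IL-2 arrays, with a mean difference of 0.66 (SE 0.18). Ltb, the gene of lymphotoxin beta, which is expressed at the cell surface with lymphotoxin alpha, had 0.27, 0.11 and -0.18 with IL-15, against -0.10, -0.35 and -0.98 with IL-2, a mean difference of 0.54. Ifng, the gene of interferon gamma, had 0.76, 0.22 and -0.23 with IL-15, against 1.01, 0.93 and 0.16 with IL-2. Its mean difference was -0.45 (SE 0.16), the opposite sign to that of the interferon-gamma-induced genes above. Il10, an anti-inflammatory cytokine gene, had a mean difference of -0.93, and Il5 and Il13, type 2 cytokine genes, had mean differences of -0.06 and -0.18 with mixed signs, or 0.01 and 0.14 without replicate 3.

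Chemokine genes had 7 of 12 above 0 in all 3 replicates (58.3%, against 9.72% of all genes) and 3 below (25.0%, against 15.4%). None of the 12 had an unadjusted p under 0.05. Cxcl10, an interferon-inducible attractant of T cells, had 0.72, 3.12 and 1.93 with IL-15, against 0.12, 0.20 and 1.43 with IL-2, a mean difference of 1.34 (SE 0.54), or 0.55 without replicate 2. Xcl1, a chemokine gene that attracts cross-presenting dendritic cells, had a mean difference of 0.71, or 0.32 without replicate 2, and Ccl3, an inflammatory chemokine gene, one of -0.41. With the sign of replicate 1 turned, 0 chemokine genes were above 0 in all 3 replicates, where all genes gave 9.38%.

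Cytotoxic genes also went both ways. Of 20 measured genes 6 were above 0 in all 3 replicates (30.0%) and 3 below (15%), against 9.72% and 15.4% of all genes. The median difference was -0.17. Prf1, the gene of the pore-forming protein perforin, had 0.27, 0.16 and 0.49 with IL-15, against 0.73, 2.12 and 1.30 with IL-2. Every IL-15 array lay below every IL-2 array, and the mean difference was -1.08 (SE 0.33, 95% interval -1.94 to -0.22), or -0.64 without replicate 2. Gzma, the gene of granzyme A, had 2.45, 0.63 and 1.71 with IL-15, against 2.79, 1.16 and 3.62 with IL-2, a mean difference of -0.93 (SE 0.35), most of it from replicate 3, where the difference was -1.92. Without replicate 3 it was -0.44.

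Gzmb, the gene of granzyme B, had 2.24, 2.66 and 0.81 with IL-15, against 1.69, 3.32 and 1.91 with IL-2. The sign differed between replicates, the mean difference was -0.40 (SE 0.35), without replicate 3 it was -0.05, and after quantile normalization it was 0.26. Fasl, the death ligand gene, had a mean difference of 0.51, or 0.34 without replicate 3, and Ctsw, a cathepsin gene of cytotoxic cells, one of 0.59. Probes of granzymes may bind RNA of related genes.

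Among effector transcription factor genes 3 of 16 were above 0 in all 3 replicates and 3 below (18.8% each). All genes gave 9.72% and 15.4%, and the median difference of the list was -0.03. Tbx21, the gene of T-bet, had 0.82, 0.24 and 0.16 with IL-15, against 0.57, -0.54 and -0.49 with IL-2, a mean difference of 0.56 (SE 0.17). Eomes, the gene of the related factor eomesodermin, had 0.50, 0.48 and 0.08 with IL-15, against 0.41, 0.42 and 0.22 with IL-2, and its mean difference was 0.00 (95% interval -0.38 to 0.39). The inhibitors of E proteins went opposite ways. Id2, linked to effector cells, had 0.87, 0.57 and 0.33 with IL-15, against 1.01, 1.28 and 1.13 with IL-2, with no overlap and a mean difference of -0.55. Id3, linked to memory precursors, had -0.00, -0.72 and -0.70 with IL-15, against -0.17, -1.80 and -1.75 with IL-2, a mean difference of 0.77.

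Some genes of naive and memory cells and of homing had lower values with IL-15. Others had higher ones: Id3, given above and also on the naive and memory list, had a mean difference of 0.77. The highest mean difference of that list was 0.80. Of 18 measured naive and memory genes 8 were below 0 in all 3 replicates (44.4%) and 3 above (16.7%). Among all genes 15.4% were below and 9.72% above. At an unadjusted p under 0.05, 5 genes of the list were lower and 1 was higher. S1pr1, the receptor gene for exit from lymph nodes, had -1.56, -0.90 and -0.22 with IL-15, against -0.56, -0.33 and 0.38 with IL-2, a mean difference of -0.72 (SE 0.17). Ccr7, the receptor gene for entry into lymph nodes, had -0.50, -0.48 and -0.41 with IL-15, against -0.11, -0.10 and 0.39 with IL-2, with no overlap and a mean difference of -0.53 (SE 0.17). The median of the naive and memory list was -0.35, 0.01 and -0.05 in replicates 1 to 3, with 3, 9 and 9 of the 18 genes above 0. Of 24 homing and adhesion genes 7 were below 0 in all 3 replicates (29.2%) and 0 above, with medians of -0.21, -0.00 and -0.29. S1pr1 and Ccr7 are on both lists. With the sign of replicate 1 turned, 0 naive and memory genes and 1 homing gene were below 0 in all 3 replicates. All genes gave 14.3% in that setting.

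Receptors of costimulation and inhibition showed single genes with larger gaps. Icos, a costimulatory receptor gene, had 0.66, 0.23 and 0.11 with IL-15, against 1.00, 1.27 and 1.84 with IL-2, with no overlap and a mean difference of -1.04 (SE 0.30), or -0.69 without replicate 3. Havcr2, the gene of the inhibitory receptor TIM-3, had 0.87, 0.63 and 0.80 with IL-15, against 1.04, 2.04 and 1.68 with IL-2, also without overlap, with a mean difference of -0.82, or -0.52 without replicate 2. Ctla4, another inhibitory receptor gene, had a mean difference of -0.99, most of it from replicate 2, where it was -1.97. Of 20 measured genes of inhibitory receptors and brakes, 1 was above 0 in all 3 replicates (5.00%) and 2 below (10.0%), and of 19 costimulatory genes 6 were above (31.6%) and 4 below (21.1%), against 9.72% and 15.4% of all genes. Cd69, an early activation marker gene, had 0.33, -0.08 and -0.13 with IL-15, against 0.13, -1.40 and -0.83 with IL-2, a mean difference of 0.74, or 0.45 without replicate 2. Among 21 natural killer cell receptor genes 2 were above (9.52%) and 4 below (19.0%), near the shares of all genes, with Klrd1, the gene of CD94, at -0.46 and Slamf7 at 0.74.

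Mitosis genes had median ratios above untreated cells with both cytokines, and some had lower values with IL-15. The median ratio of 32 measured genes was 1.41, 0.54 and 0.56 on the IL-15 arrays, against 1.52, 0.90 and 1.10 on the IL-2 arrays. Below 0 in all 3 replicates were 12 of them (37.5%, against 15.4% of all genes) and above 0 were 0, and the median difference was -0.27. After quantile normalization the median was -0.09 and 8 genes were below 0 in all 3 replicates, where all genes gave 11.8%. With the sign of replicate 1 turned 8 genes were below 0 in all 3 replicates, where all genes gave 14.3%. The median was then -0.21, and without replicate 3 the median was -0.19.

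Bub1b, a spindle checkpoint kinase gene, had 1.47, 0.61 and 0.52 with IL-15, against 1.97, 1.58 and 1.34 with IL-2, a mean difference of -0.76 (SE 0.17). Aurkb, the gene of Aurora B, had 0.61, 0.69 and -0.22 with IL-15, against 1.07, 1.21 and 0.61 with IL-2, a mean difference of -0.61 (SE 0.16). Top2a, a topoisomerase gene of dividing cells, differed by -0.09, -0.71 and -1.94 in replicates 1 to 3. For DNA replication 6 of 32 genes were below 0 in all 3 replicates (18.8%), which is near the 15.4% of all genes, and 1 was above. For histones 3 of 20 were below (15%) and 0 above. Cdkn2b, the gene of the CDK inhibitor p15, had 0.05, -0.28 and -0.28 with IL-15, against 0.80, 0.24 and 1.55 with IL-2, with no overlap and a mean difference of -1.04 (SE 0.30), or -0.64 without replicate 3.

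Most genes of ribosome biogenesis and Myc targets had slightly higher values with IL-15. Of 21 measured genes 15 (71.4%) were above 0 in all 3 replicates and 0 below, against 9.72% and 15.4% of all genes. The median difference was 0.34, with 0.16, 0.33 and 0.50 in replicates 1 to 3. Bop1, a gene for maturation of the large ribosomal subunit, had 0.46, -0.14 and -0.76 with IL-15, against 0.04, -0.56 and -1.13 with IL-2. The ratio to untreated cells varied by over 1 log2 unit between replicates while the difference was 0.43, 0.43 and 0.37, with a mean of 0.41 (SE 0.14). Myc itself had 0.23, -0.16 and -0.15 with IL-15, against 0.24, -0.82 and -1.36 with IL-2, with differences of -0.01, 0.66 and 1.21 in replicates 1 to 3. Without replicate 3 the median of the list was 0.24. With the sign of replicate 1 turned 2 genes were above 0 in all 3 replicates, where all genes gave 9.38%. Ribosomal protein genes, in contrast, had 3 of 33 above (9.09%) and 4 below (12.1%), near the shares of all genes, and a median of 0.05. The difference between these lists was not tested.

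Immediate early genes, which T cell receptor signals switch on within minutes to hours, had a median difference of 0.23 over 28 genes, with 8 above 0 in all 3 replicates (28.6%) and 0 below. The shares of all genes were 9.72% and 15.4%. The median of the list by replicate was 0.01, 0.32 and 0.41. Fos, a subunit gene of AP-1, had -0.84, -0.66 and -0.29 with IL-15, against -1.15, -1.85 and -1.12 with IL-2. It was below untreated cells on all 6 arrays, less so with IL-15, and the mean difference was 0.78 (SE 0.22). Nr4a1, a gene that reports receptor signal strength, differed by -0.06, 1.34 and 1.60.

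Of the S100, annexin and galectin genes, which encode calcium-, phospholipid- and sugar-binding proteins, more than not had lower values with IL-15. Of 19 genes 11 (57.9%) were below 0 in all 3 replicates and 3 above (15.8%), against 15.4% and 9.72% of all genes. The median was -0.32. S100a4 had 2.32, 1.33 and 1.85 with IL-15, against 2.64, 2.57 and 2.55 with IL-2, with no overlap and a mean difference of -0.75 (SE 0.22). S100a6 had 1.86, 1.08 and 1.19 with IL-15, against 2.15, 1.96 and 1.99 with IL-2, also with no overlap and a mean difference of -0.66. Lgals3, the gene of galectin-3, had 0.62, 0.58 and 0.64 with IL-15, against 0.90, 1.40 and 2.06 with IL-2, a mean difference of -0.84, or -0.55 without replicate 3. All 3 genes were above untreated cells on every array. With the sign of replicate 1 turned, 1 gene of the list was below 0 in all 3 replicates, where all genes gave 14.3%.

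**Figure D4:**
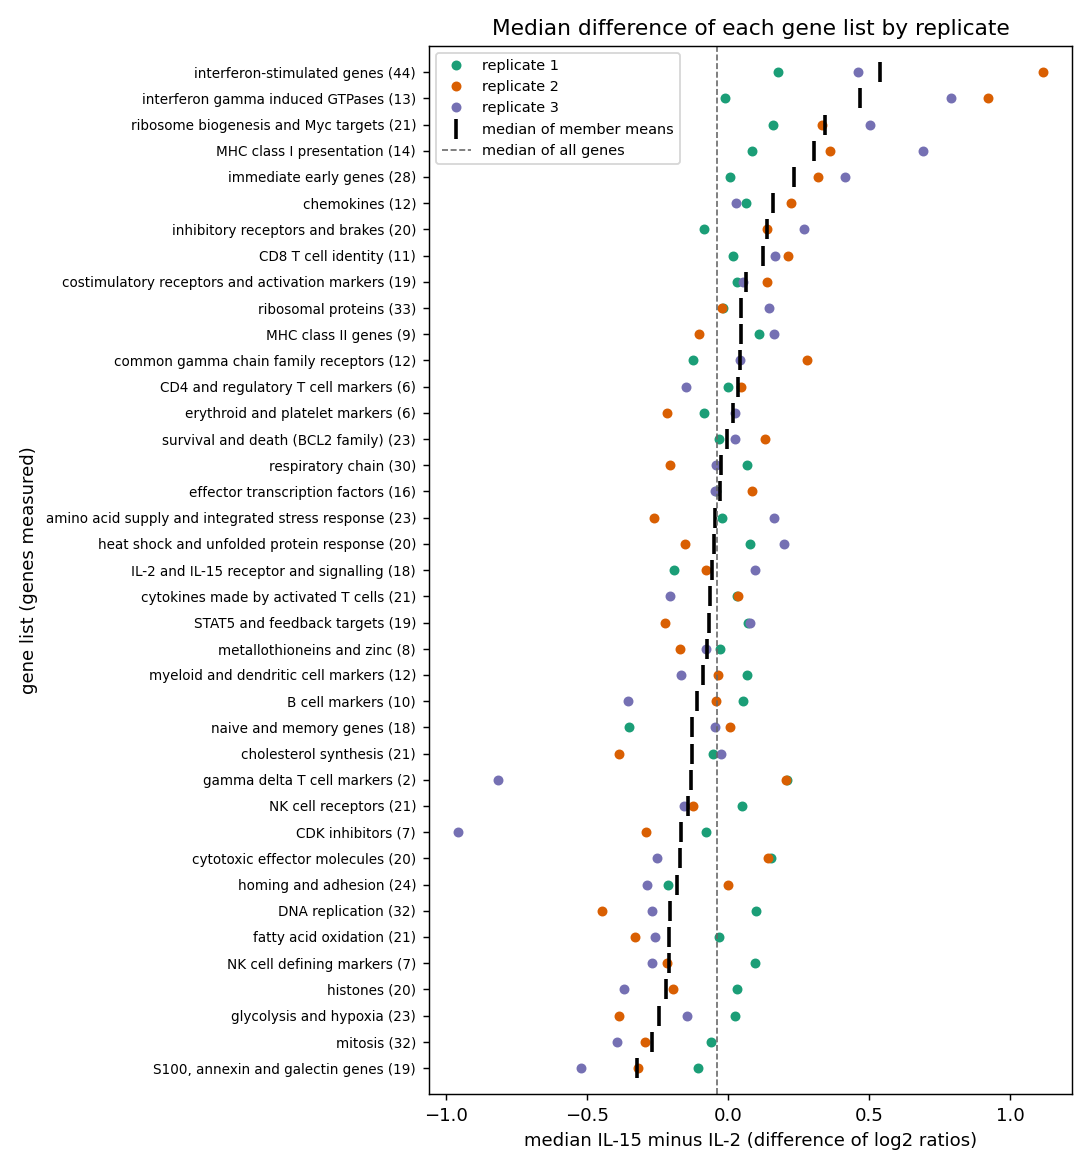
The x axis gives the median difference of log2 ratios, IL-15 minus IL-2, of each of 39 gene lists, with 1 point per replicate, a bar for the median of the members' means and a dashed line at the median of all genes (-0.04). Interferon-stimulated genes are at the top (0.54) and S100, annexin and galectin genes at the bottom (-0.32).

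Metabolic lists varied in how many members had lower values with IL-15. Fatty acid oxidation and cholesterol synthesis each had 8 of 21 genes below 0 in all 3 replicates (38.1%) and 1 above. Their medians were -0.21 and -0.13. Glycolysis had 6 of 23 below (26.1%) and 0 above, where all genes gave 15.4% below and 9.72% above. Turning the sign of replicate 1 put 3, 3 and 10 genes of these 3 lists below 0 in all 3 replicates, where all genes gave 14.3%. The glycolysis list had 13 of 23 genes above 0 in replicate 1. Cpt1a, the gene of the enzyme that admits fatty acids to mitochondria, had -0.25, 0.01 and 0.04 with IL-15, against 0.36, 0.08 and 1.40 with IL-2, a mean difference of -0.68 (SE 0.28). Its groups did not overlap, but replicate 2 differed by only -0.07, and without replicate 3 the mean was -0.34. Scd2, a fatty acid desaturase gene, had 0.02, 0.42 and 0.44 with IL-15, against 0.30, 1.59 and 1.54 with IL-2, a mean difference of -0.85 (SE 0.23). Respiratory chain genes had 2 of 30 above (6.67%) and 3 below (10.0%), and BCL2 family and other death genes 4 of 23 above (17.4%) and 2 below (8.70%), with medians of -0.03 and 0.00. Bcl2, a survival gene that common gamma chain cytokines induce, had 0.24, 0.24 and 0.05 with IL-15, against 0.27, -0.07 and -0.02 with IL-2, a mean difference of 0.12 (95% interval -0.29 to 0.52), or 0.02 without replicate 2.

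**Figure D5:**
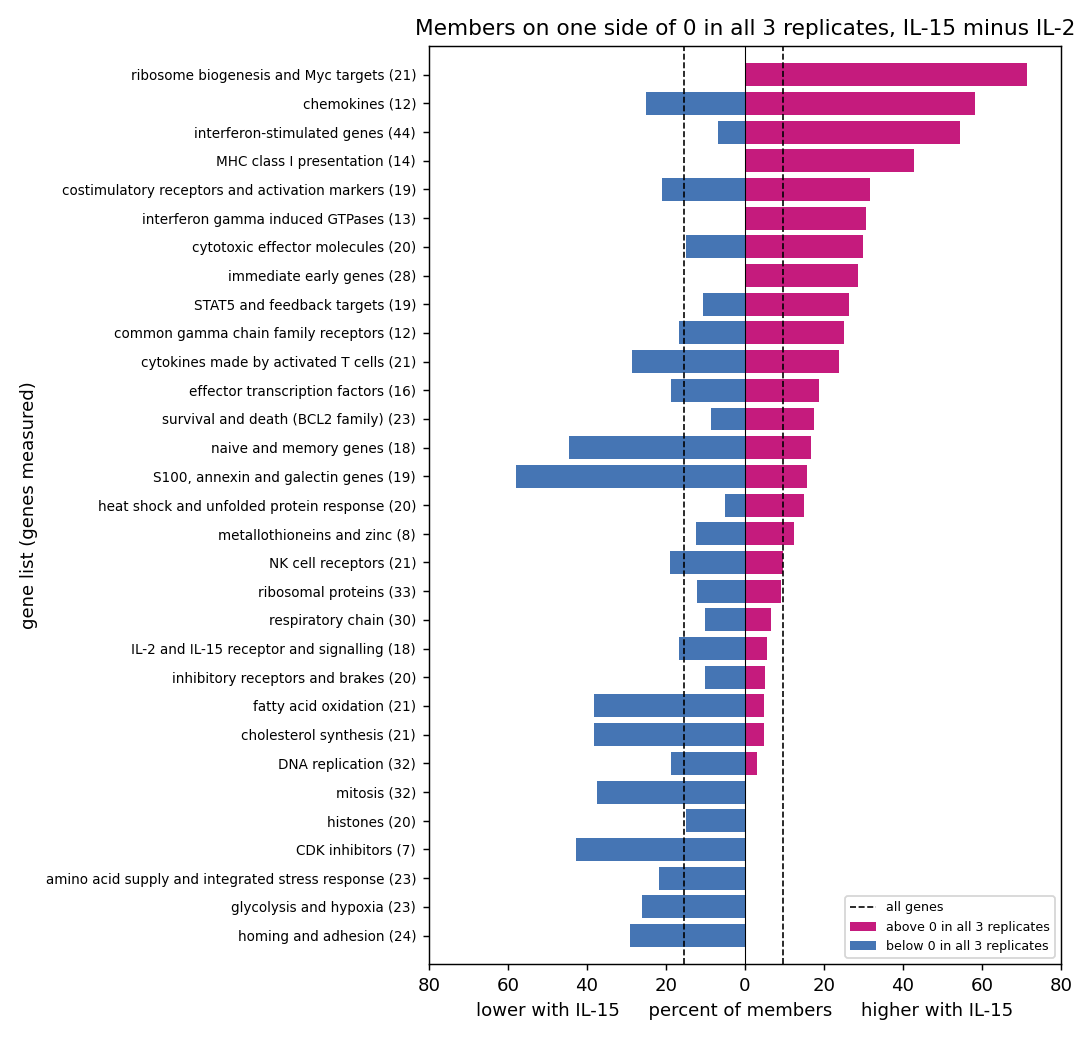
Bars give the percent of measured members of 31 pathway lists that were above 0 (right) or below 0 (left) in all 3 replicates, IL-15 minus IL-2, and dashed lines give the shares of all genes, 9.72% and 15.4%. Ribosome biogenesis (71.4%) and interferon-stimulated genes (54.5%) reach far right of their line, and S100, annexin and galectin genes (57.9%) far left.

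Genes were also picked across the whole table by their p or by their weakest difference. Interferon genes, namely Isg15, Usp18, Phf11a and Calhm6, were the smaller part of those higher with IL-15. The larger part were other genes, among them Lipi, Sntg2, Clec2d and Ppa1, with mean differences of 1.38, 1.01, 0.81 and 0.76. The smallest unadjusted p of all genes lower with IL-15 belonged to Fam20a, a gene of the secretory pathway linked to enamel formation, with -0.37, -0.63 and 0.27 under IL-15, against 1.01, 0.56 and 1.53 under IL-2 and a mean difference of -1.28 (SE 0.14). Edil3, an extracellular matrix gene, had -3.25, -0.28 and 0.12 with IL-15, against -1.65, 1.07 and 1.25 with IL-2, a mean difference of -1.36 (SE 0.17). Nsun7 had the largest gap of these, with a mean difference of -3.77, but its IL-15 values ran from -6.14 to 0.86. Each of these 3 genes has 1 probe, and without intensities it is unknown whether such probes were above background. Calhm6, an interferon-inducible gene, had 1.03, 1.45 and 1.43 with IL-15, against 0.10, -0.22 and 0.42 with IL-2, with no overlap and a mean difference of 1.20 (SE 0.21).

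A difference of at least 0.5 in every replicate was found for 27 genes higher with IL-15 (0.154%) and 72 lower (0.411%). Isg15, Usp18 and Phf11a were among those higher, and so were Lipi, Sntg2, Clec2d and Ppa1. Several large mean differences came from 1 array only. Socs1, a feedback inhibitor gene, stood at 4.45 on IL-15 replicate 2 and between -0.10 and 0.24 on the other 5 arrays, and its 2 probes gave 0.28 and 2.30. Cad, a pyrimidine synthesis gene, stood at 6.16 on IL-2 replicate 2, and Ccr2, a chemokine receptor gene, at -3.82 on IL-15 replicate 1.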

How the data were processed

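The deposited values are log2 ratios, 1 per probe and array, for 36547 probes, and they were taken as log2 because they are signed and run from -8.01 to 8.78, while the log base, background correction and normalization by the authors are nowhere stated in the sources used here. With another log base every fold would differ. Per the labels' protocols, RNA was amplified with amino allyl reagents. Of the probes 26926 had 1 symbol, 203 had several and 9418 were unnamed in the annotation used. Symbols were updated by Entrez ID, 41 control probes were left out, and a gene's probes were averaged on each array. No intensities were used, so whether a probe was dim is unknown. Precision is limited by the number of arrays.

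Groups and replicate numbers came from the sample titles. Limma 3.58.1 (R 4.3.3) tested the paired differences two-sided, with lmFit and eBayes, and p-values were adjusted by Benjamini-Hochberg over all 17498 genes at 0.05. Errors are limma's standard errors over 3 pairs. The code was tested on simulated data. The pairing rests on these numbers. Deviations of same-numbered IL-15 and IL-2 arrays from their group means correlated at 0.60, 0.15 and 0.35. Arrays of different number gave -0.49 to 0.24, and such deviations lower these values by construction. IL-15 replicate 2 correlated more with IL-2 replicate 3 (0.24) than with its partner, so the correlations do not establish the pairing. The genes named were drawn by a rule that takes the 10 genes with the smallest p in each direction, the 10 with the highest and the 10 with the lowest weakest difference, up to 3 members of each list with the smallest p, and a set of fixed genes, 160 in all, of which only part are printed. Genes named outside that rule, which are Ifit1, Ifit2, Isg20, Mx1, Ifih1, Eif2ak2, Rsad2, Cmpk2, Stat2, Irf9, Oas1a, Oas1g, Oas2, Ifitm1, Ifitm2, Il10, Myc, Nr4a1, Socs1, Cad and Ccr2, were chosen after their values were seen. The members and the 39 lists were chosen with earlier results of these data known, so no test was made over a list. Alternatives to the pairing, the normalization, the handling of probes, the sign of replicate 1, the eBayes prior and the replicates used were tried. Promoter sequences are from RefSeq (GRCm38.p6).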

Additional observations from a re-analysis of the deposited data

How the results depend on the processing

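Under every alternative run, limma called 0 genes higher and 0 lower after adjustment, and the smallest adjusted p of any gene-level alternative was 0.61, without replicate 2. Testing 36506 probes singly also called 0, with 1167 at an unadjusted p under 0.05. The replicate block decides how many genes have an unadjusted p under 0.05, 639 in the paired fit: with no replicate block it was 208 over the 6 arrays and 252 over all 9, against 831 with the replicate block over all 9 arrays and 739 with a random block. The paired counts of 0 higher and 0 lower were 0 and 0 in each of these fits. Other settings gave 668 (quantile normalization), 627 (median centring), 411 of 11615 genes with exactly 1 probe, and 532 (sign of replicate 1 turned), and leaving out each replicate gave 433 to 830. The share of higher genes among those of 1 sign was 38.7%, against 51.3% after quantile normalization (2173 higher, 2065 lower) and 47.1% after median centring (2027 and 2278). Genes lower in all replicates numbered 1649 among genes with exactly 1 probe. With only 2 replicates required, 3343 to 4254 genes were higher and 4838 to 5208 lower, by construction more than with 3.

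Of the 160 genes drawn by the rule, 18 turned sign in some setting, in 24 of 2040 combinations of gene and setting, and the cause was not tested. Genes named outside the rule are not in that count. Of those, Socs1, Rsad2, Oas2 and Irf9 had mean differences of -0.16, -0.55, -0.40 and -0.0001 without replicate 2, against values above 0 with all 3 replicates. The others outside the rule kept their sign without any 1 replicate. Turning replicate 1 gave C130023O10Rik 0.23, Fyb2 0.0814, Ccl3 0.0268, H2bc14 0.23, Hba-a1 0.23 and Il2ra 0.016, and the mean difference of Eomes was -0.0608. Quantile normalization gave Csf2 0.0402, Gzmb 0.26, Prdm1 0.105 and Ccl1 0.155, and a mean difference of Sox13 of 0.0824, and the median over probes gave Il2ra 0.0548. Leaving out each replicate spanned -0.087 to 0.36 for Cd4, -0.10 to 0.25 for Ikzf2, -0.29 to 0.0842 for Zbtb16, -0.39 to 0.33 for Sox13, -0.16 to 0.73 for Ppbp, -0.23 to 0.0666 for Il2ra, -0.15 to 0.0085 for Il5, -0.56 to 0.14 for Il13, -0.043 to 0.0767 for Eomes and -0.25 to 0.18 for Prdm1. Values with 2 replicates rest on 1 residual degree of freedom.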
